A study of Mus musculus with 4 samples.

Results

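Gas5 (growth arrest specific 5) is a noncoding RNA gene of mouse chromosome 1 whose introns carry genes of small nucleolar RNAs (snoRNAs). It held 9 of the 793 RNA regions, or peaks, that the study lists as bound by the R783H mutant of Trim71. The 9 peaks are all rows that the authors' table assigns to Gas5. No other listed peak fell within the span of the gene. Gas5 was chosen by its number of peaks and its RPM in this table, so both, and the fold changes of the same contrast, are given as a description, without a test.

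Trim71 is a TRIM-NHL protein that binds RNA through its NHL repeats, and the study concerns a mutation of it linked to hydrocephalus. Its RNA contacts were mapped by HITS-CLIP, in which protein and RNA are crosslinked in the cell, the protein is immunoprecipitated and the RNA bound to it is sequenced. All 4 libraries came from 1 kind of cell, mouse embryonic stem cells of the ES-E14TG2a background that carry FLAG-Trim71 (R783H). There were 2 CLIP libraries, made with the FLAG-M2 antibody, and 2 input libraries, for which the labels name no antibody. Libraries from untagged cells or from cells with wild-type Trim71 were not analysed here, so binding particular to the mutant and binding common to both forms cannot be told apart. Whether the cells are 1 clone, and whether the libraries come from separate cultures, is not given in the sources used here. A list of peaks carries no expression level by which the stem cell identity could be checked.

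Each peak has a single read density in RPM, its reads scaled to the size of the library, and a single fold change of CLIP over input, which the authors computed and which is read here as log2. The table names no library beside them, so no spread between replicates exists for any value below. The steps between the deposited values correspond to totals of 11000000 CLIP reads and 82160000 input reads. The numbers of CLIP and input reads given below were recovered from these steps. The 95% intervals are exact Clopper-Pearson intervals of those reads and cover counting error only, since PCR copies are not independent molecules.

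Gas5 is known as a snoRNA host gene. Its transcript is spliced, the released introns are trimmed from both ends, and the parts protected by protein remain as box C/D snoRNAs, which guide 2′-O-methylation of ribosomal RNA. The spliced exons contain no long reading frame and are degraded through nonsense-mediated decay when translated. The gene belongs to the 5′ TOP class, whose transcripts begin with a cytosine followed by a run of pyrimidines and whose translation depends on growth signals. In the RefSeq gene table of assembly GRCm38.p6, the same build as the mm10 of the submitters' processing notes, Gas5 (gene 14455) spans chr1:161034601-161038539 on the plus strand, 3939 bases, with 8 RefSeq transcripts.

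RefSeq gives 2 starts for Gas5, 565 bases apart, at 161034601 and 161035166. The first 30 bases transcribed from each are shown because they place the peaks relative to the transcript and show which start has the pyrimidine run. The start of Snhg1, the host gene nearest to Gas5 in read density, is set beside them. Capitals mark CTTTC where it forms the first bases of the transcript on the gene's own strand.
Gas5, first start: gagctcgacagcccggagccaaaggggcgg
Gas5, second start: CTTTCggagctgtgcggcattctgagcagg
Snhg1: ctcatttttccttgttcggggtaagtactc
The second Gas5 start opens with CTTTC, which 45 of the 32851 start windows of the RefSeq table (0.137%) do at the same place. The first Gas5 start and that of Snhg1 do not. The count is of this exact string and not of every start with a cytosine and a pyrimidine run, so it is not the share of the TOP class. CTTTC was not among the motifs planned beforehand and is the opening of this Gas5 start itself, so the count is no test of the gene. None of the 9 peaks overlapped the window from 250 bases before to 50 bases after either Gas5 start. The peak nearest to a start began 234 bases after the second one.

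The peaks lay on the snoRNA genes. RefSeq lists 8 snoRNA genes within Gas5, together 573 bases or 14.5% of its span, and 8 of the 9 peaks overlapped one of them by at least 1 base. Over the whole list, 99 of 793 peaks (12.5%) overlapped a snoRNA gene, and among the 216 listed peaks in introns or unclassified exons 87 did (40.3%). Those 8 peaks contained 96.5% of the summed RPM of Gas5. The 9 peak widths summed to 313 bases, 7.95% of the span.

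Of the 8 snoRNA genes, 5 carried a listed peak and 3 carried none. In order along the gene, those with a peak were LOC115487643, LOC115487678, LOC115487644, LOC115487645 and LOC115487640. The table has no other symbol for them. Those without were LOC115487638 (chr1:161036057-161036139), LOC115487677 (chr1:161036984-161037049) and Snord47 (chr1:161038092-161038156), a box C/D snoRNA. The table gives no values for unlisted regions, so the level of binding to these 3 is not known.

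**Figure D1:**
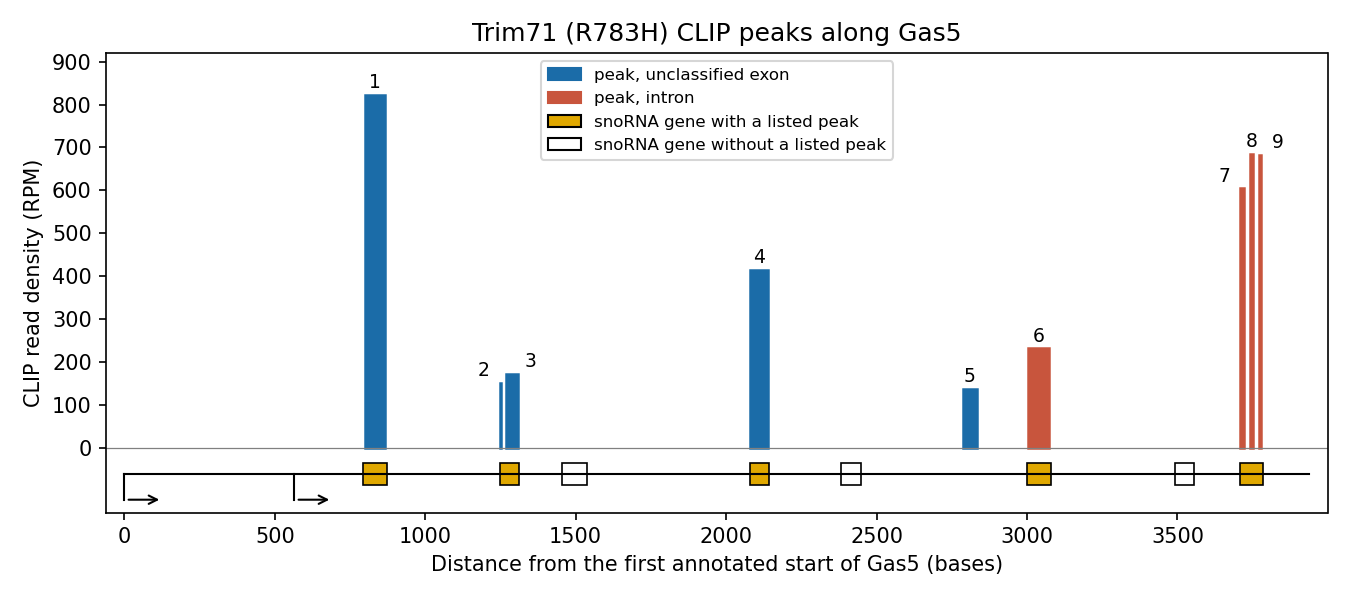
Read density of the 9 Gas5 peaks (bars, RPM, bar width to scale) against the distance from the first annotated start in bases, numbered in order along the gene. Boxes below are the 8 snoRNA genes, filled where a listed peak overlaps them, and arrows are the 2 annotated starts. Peak 5 is the only bar with no box beneath it, and the bars reach from 139 RPM for peak 5 to 823 RPM for peak 1.

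The location labels of the authors' table changed once along the gene. The 5 peaks labelled as unclassified exon were the first 5, ending at 161037434, and the 4 labelled as intron were the last 4, beginning at 161037604. Both labels covered snoRNA genes: 4 of the 5 exon-labelled and all 4 intron-labelled peaks overlapped one. In the whole list, 55.8% of peaks in unclassified exons (53 of 95) and 28.1% of intronic peaks (34 of 121) overlapped a snoRNA gene.

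Peak 1 (chr1:161035400-161035466) had the highest read density of all 793 listed peaks, 823 RPM from 9051 CLIP reads. The input held 1567 reads in the same interval, or 19.1 input RPM, the 10th highest input of the list. The log2 fold change was 5.43 (interval 5.35 to 5.51). This peak spanned bases 7 to 73 of the 80 bases of LOC115487643, so that a few bases at each end of the snoRNA gene lay outside it.

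Peaks 2 and 3 shared the 62-base gene LOC115487678 and were 18 bases apart. Peak 2 (chr1:161035849-161035852), with only 3 bases between its start and end, lay at the first bases of the gene and had 152 RPM, 1672 CLIP reads and 184 input reads. Peak 3 (chr1:161035870-161035909) covered bases 21 to 60 and had 173 RPM, 1903 CLIP reads and 769 input reads. Their CLIP reads were thus close, with a ratio of 0.88 of peak 2 to peak 3, while the ratio of their input reads was 0.24. The log2 fold change was 6.09 for peak 2 (interval 5.86 to 6.31), the highest of Gas5, and 4.21 for peak 3 (interval 4.09 to 4.33). The difference of peak 3 from peak 2 was -1.88 (95% counting interval -2.13 to -1.63), although both lie on 1 annotated snoRNA gene. The widths of these peaks differ, and how the authors assigned a read to a peak is not stated. The interval of the difference treats the reads of the 2 peaks as separate, which is not known.

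Peak 4 (chr1:161036682-161036739) covered nearly the whole of LOC115487644, bases 1 to 58 of 60. It had 415 RPM, with 4568 CLIP and 1491 input reads, which gave 4.52 as log2 fold change (interval 4.43 to 4.60). Its input was close to that of peak 1, with a ratio of 1.05 of peak 1 to peak 4, while the CLIP reads of peak 1 exceeded it by a ratio of 1.98.

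Peak 5 (chr1:161037387-161037434) was the exception in position. No snoRNA gene of the table overlapped it. The nearest were LOC115487645, 167 bases downstream, and LOC115487677, 338 bases upstream. It was the lowest of the 9 peaks in read density, at 139 RPM (1525 CLIP reads), and in log2 fold change, at 3.61 (interval 3.49 to 3.73), with 931 input reads. It still ranked 36th of 793 by RPM, and by fold change it ranked 559th. The RefSeq table lists genes and not exons, so whether peak 5 lies on a spliced exon of Gas5 was not examined.

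Peak 6 (chr1:161037604-161037675), the first with an intron label, covered bases 4 to 75 of the 81 bases of LOC115487645. With 2561 CLIP reads (233 RPM) and 325 input reads it reached a log2 fold change of 5.88 (interval 5.71 to 6.05), second to peak 2 in Gas5. The input here was the second lowest of the 9 peaks, again after peak 2.

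Peaks 7, 8 and 9 lay on the last snoRNA gene, LOC115487640, 19 bases apart from one another. They covered bases 3 to 16, 35 to 45 and 64 to 71 of its 76 bases, so that each end and the middle had a peak of its own. Their read densities were 605 RPM for peak 7 (chr1:161038310-161038323), 686 RPM for peak 8 (chr1:161038342-161038352) and 683 RPM for peak 9 (chr1:161038371-161038378). These were the 6th, 4th and 5th highest of the list. Input reads numbered 1145, 1779 and 1860. The log2 fold change was 5.44 for peak 7 (interval 5.35 to 5.53), 4.99 for peak 8 (interval 4.91 to 5.06) and 4.92 for peak 9 (interval 4.84 to 4.99). Peak 7, at the 5′ side, was therefore higher than peaks 8 and 9, whose intervals overlapped (difference of peak 9 from peak 8 -0.07, counting interval -0.17 to 0.04). A read longer than the gaps could have been counted in more than 1 of these peaks, so their sum of 1973 RPM may count 1 read several times. The interval of the difference treats the reads of each peak as separate, so it may not give the counting error of that difference.

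**Figure D2:**
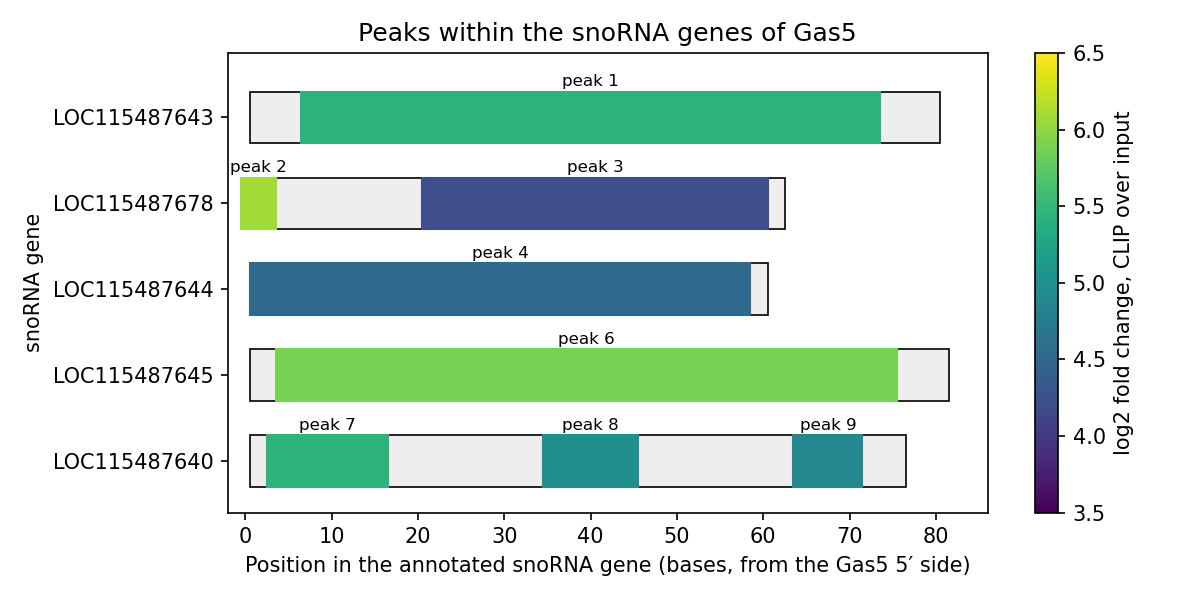
The 5 snoRNA genes of Gas5 with a listed peak, drawn to scale in bases from the side of the Gas5 5′ end, with the peaks coloured by log2 fold change. Peaks 1, 4 and 6 fill most of their genes, while LOC115487678 holds peaks 2 and 3 of unlike colour (6.09 and 4.21) and LOC115487640 holds peaks 7, 8 and 9.

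As a share of the annotated bases, the peaks covered 96.7% of LOC115487644, 88.9% of LOC115487645, 83.8% of LOC115487643, 69.4% of LOC115487678 and 43.4% of LOC115487640. These positions and shares count both the deposited start and the end, whereas a width is the end minus the start, so the covered bases can exceed a width by 1. The sources used here do not say whether it counts from 0, which would move each start by 1 base. The table gives no strand for the snoRNA genes. All 9 peaks were on the plus strand, that of Gas5.

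The span of Zbtb37, a zinc finger gene on the minus strand, overlaps the first start of Gas5, ends at 161034864 and reaches none of the peaks. Many snoRNAs have close copies elsewhere in the genome. The treatment of reads with several matches is not given in the sources used here, so the assignment of these reads to Gas5 is uncertain.

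Across Gas5, read density and enrichment did not follow the same order. By RPM the peaks ranked 1, 8, 9, 7, 4, 6, 3, 2 and 5, with a ratio of 5.94 between the highest and the lowest. By log2 fold change the order was 2, 6, 7, 1, 8, 9, 4, 3 and 5, with a ratio of 5.55 in linear fold. Input reads varied most, by a ratio of 10.1 from 184 to 1860, and the 2 peaks with the fewest input reads were the 2 with the highest fold change, a measure that the input itself enters. In the order by fold change the counting intervals of neighbours overlapped for peaks 2 and 6, peaks 7 and 1, and peaks 8 and 9, and these were the only 3 of 36 pairs that overlapped. Whether the other differences exceed the spread between libraries could not be tested.

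**Figure D3:**
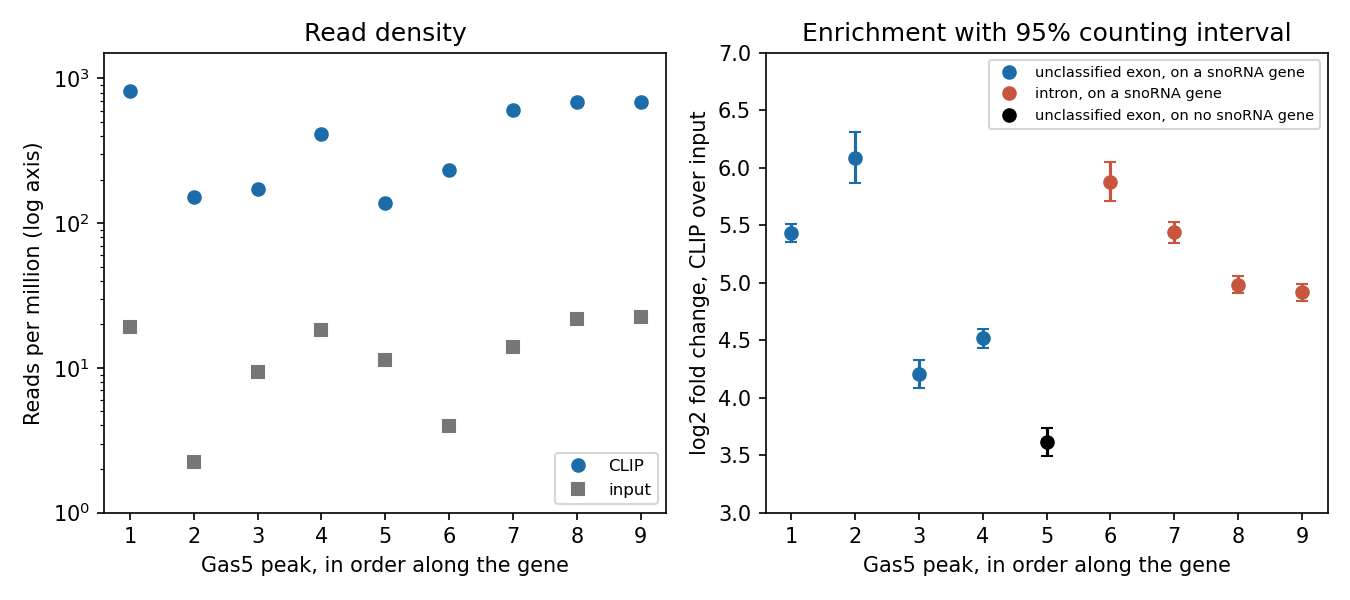
Left, CLIP (circles) and input (squares) in RPM, on a log axis, for the 9 Gas5 peaks in order along the gene. Right, log2 fold change with its 95% Clopper-Pearson counting interval, coloured by location label and overlap with a snoRNA gene. Peaks 2 and 6 have the lowest input and the highest fold change, and peak 5 the lowest fold change at 3.61.

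Gas5 made up 1.13% of the listed peaks but 17.6% of the summed RPM of the list (42988 of its CLIP reads; Clopper-Pearson interval 17.4 to 17.7%). Its share of the input reads in the listed intervals was smaller, 9.92% (interval 9.74 to 10.1%). Both intervals treat each read as counted once, which is not known, so they may not give the counting error of these shares. When peaks within 50 bases of one another were merged and only the highest RPM kept, the share of RPM was 13.1%, and without peak 1 it was 14.4%. Of the 10 peaks with the highest RPM, 5 were in Gas5, and of the top 20, 6 were. The peaks listed under Snord43 (777 RPM) and Snord2 (696 RPM), outside Gas5, were denser than every Gas5 peak except peak 1. As a share of all 11000000 CLIP reads, the Gas5 peaks held 0.391%, if no read was counted more than once.

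By enrichment Gas5 stood less far apart. The median log2 fold change of its peaks was 4.99, with values from 3.61 to 6.09, against a median of 4.20 over the list and 4.38 over the 91 peaks that overlap a snoRNA gene outside Gas5. Of the 9 peaks, 8 were above the median of the list, and their ranks by fold change ran from 39th to 559th. The median input of the Gas5 peaks was 1145 reads, against 219 for the other peaks on snoRNA genes and 42 over the list. High read density in Gas5 thus came mostly with high input, peaks 2 and 6 having the least. Input is the RNA of the same cells before immunoprecipitation, and the amount of Gas5 snoRNA in it and the binding per molecule are not given by the table as separate values.

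**Figure D4:**
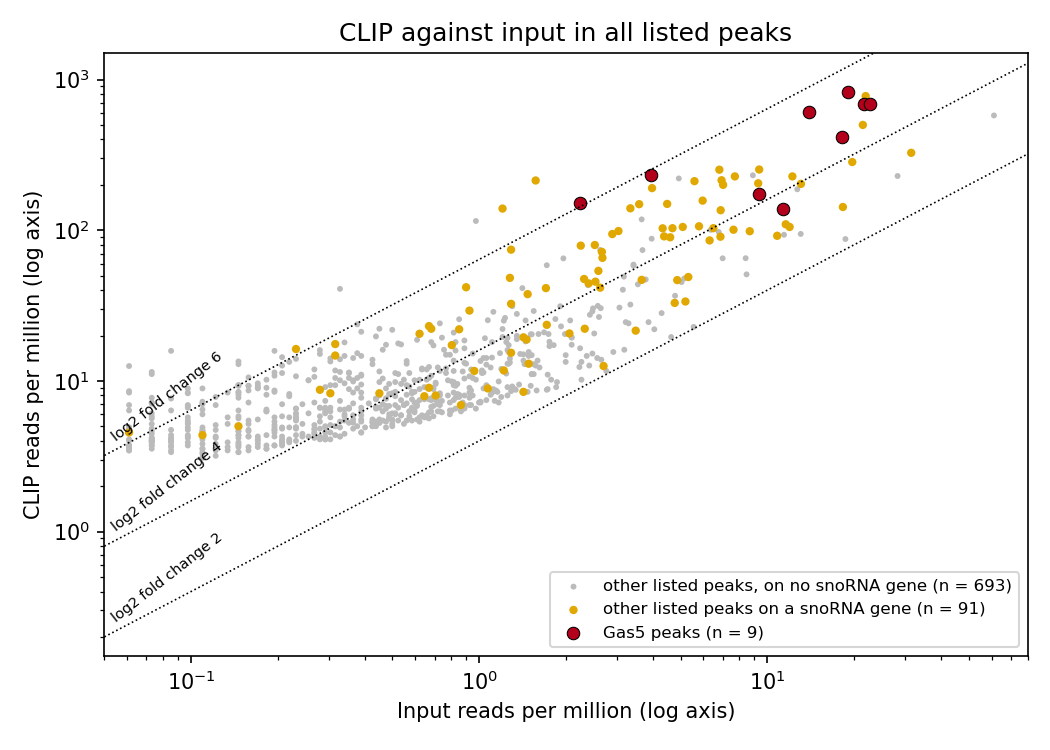
CLIP RPM against input RPM for all 793 listed peaks, both on log axes, with dotted lines at log2 fold changes of 2, 4 and 6. Gas5 peaks (n = 9) lie at high CLIP and mostly high input, within the band of enrichment taken by the 91 other peaks on snoRNA genes.

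Other snoRNA host genes gave the nearest comparison. Apart from Gas5, 70 listed genes held a RefSeq snoRNA gene within their span. The authors' table assigned 141 peaks to them by name, and 158 peaks lay within their spans under any name, since some peaks are listed under the snoRNA itself. Of those 158 peaks, 85 (53.8%) overlapped a snoRNA gene, against 8 of 9 in Gas5. Peaks under any name lay on 71 of the 160 snoRNA genes of these hosts (44.4%), against 5 of 8 in Gas5. The median read density was 415 RPM in Gas5 and 19.9 RPM in the 141 peaks, a ratio of 20.9, and 20.5 RPM in the 158 peaks, a ratio of 20.3. Against the 69 of the 141 peaks that overlap a snoRNA gene, with a median of 65.5 RPM, the ratio was 6.34. Against all 91 peaks on snoRNA genes outside Gas5, of which 22 are not listed under a host, the median was 48.9 RPM and the ratio 8.49. No test was made, since peaks of 1 gene share their source and Gas5 was chosen for its density.

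The 2 hosts nearest to Gas5 in summed RPM, by the difference of log2 sums over the pooled CLIP libraries, were Snhg1 and Rpl17, counting peaks listed under the host's name. Counting all peaks within the span, they were the same 2, with 1229 and 844 RPM. Gas5 had 3908 RPM in sum and Snhg1, also a noncoding host, 1229 RPM over 9 peaks, which is 1.67 lower on the log2 scale. All 9 Snhg1 peaks overlapped a snoRNA gene, on 6 of its 8, at 22.2 to 284 RPM. Their log2 fold changes ran from 3.09 to 4.95. Rpl17, which encodes a protein of the large ribosomal subunit, had 705 RPM over 4 peaks under its own name, all on snoRNA genes, with log2 fold changes of 4.30 to 5.24. The values of Gas5 reached above both genes in both measures but overlapped them: its lowest peak, at 139 RPM, was below the median of Rpl17 (179 RPM).

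**Figure D5:**
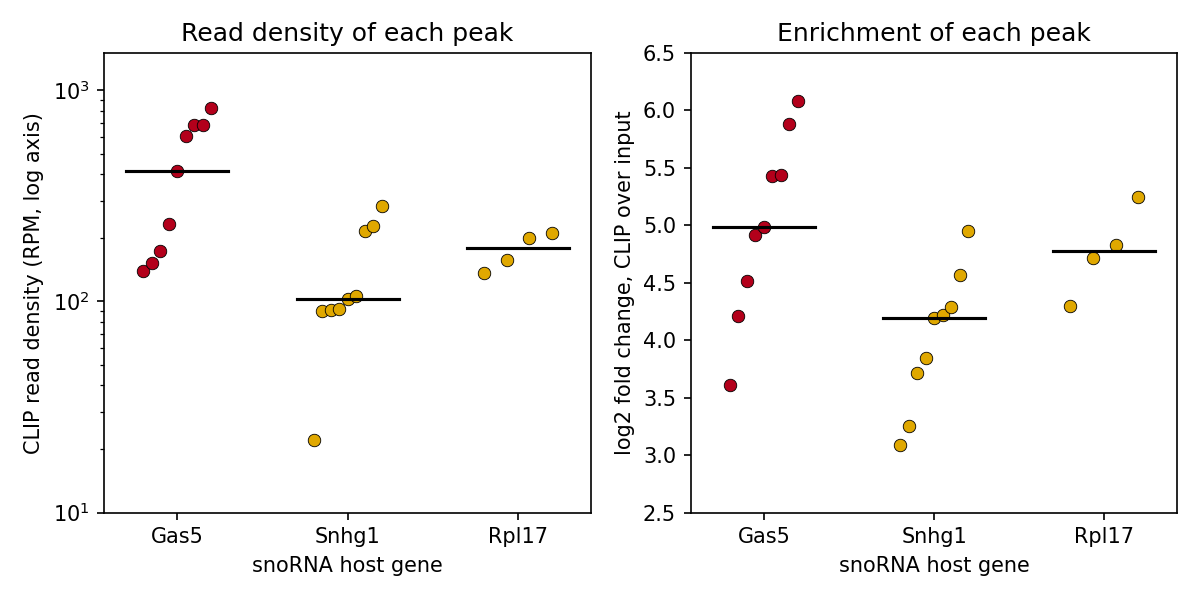
Each listed peak of Gas5 and of the 2 snoRNA host genes nearest to it in summed RPM, as RPM on a log axis (left) and as log2 fold change (right); horizontal lines are medians. The medians were 415 RPM for Gas5, 103 RPM for Snhg1 and 179 RPM for Rpl17.

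Among 22 noncoding snoRNA hosts fixed as a list, 6 had a peak listed under the exact symbol used in that list: Gas5, Snhg1, Snhg3, Snhg4, Snhg12 and 1110038B12Rik. Members that the authors listed under an older symbol would be missed by this count. Among all 108 long noncoding RNA genes of the RefSeq table with a snoRNA gene in their span, 9 did (8.33%). The 3 whose listed symbols are not in the fixed list, named after their values were seen, were 2410006H16Rik, 1500012F01Rik and Rian. Whether any of these 3 is a member of the fixed list under an older symbol was not examined. Under their own names they had, in that order, 2 peaks with 259 RPM in sum, 2 with 16.5 RPM and 1 of 6.91 RPM. Within their spans, under any name, 2410006H16Rik had 3 peaks with 464 RPM and Rian 3 with 71.3 RPM, while 1500012F01Rik was unchanged. Apart from Gas5 and Snhg1 each of the 6 had a single peak under its own name. Counting all peaks within the span, 1110038B12Rik had 2, both on snoRNA genes, with 467 RPM in sum. The peak listed under 1110038B12Rik, on the snoRNA gene LOC115488834, had 214 RPM and reached 7.09 in log2 fold change (interval 6.83 to 7.36), above all Gas5 peaks. That of Snhg12, on Snord99, had 79 RPM and reached 5.13 (interval 4.90 to 5.37). That of Snhg4, on Snora74a, an H/ACA snoRNA, had 15.4 RPM and 3.57 (interval 3.22 to 3.94). The peak of Snhg3, with 19.9 RPM and 3.88 in log2 fold change (interval 3.55 to 4.22), overlapped no snoRNA gene of the table. These 4 peaks, as listed under the host's name, were thus below most Gas5 peaks in read density. Only that of 1110038B12Rik was above any of them.

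Of the 4 core proteins of box C/D snoRNPs, the particles that contain such snoRNAs, 2 had listed peaks in their own genes. Nop56 had 3 peaks at 13.0 to 149 RPM, 2 of them on snoRNA genes that it hosts. Nop58 had 4 under its own name, of which 1 was on a snoRNA gene, at 4.55 to 16.5 RPM. Within its span, under any name, there were 5, of which 2 were on snoRNA genes. Fbl, the methyltransferase, and Snu13, which binds the kink-turn of the snoRNA, were not listed. Of 8 factors of nonsense-mediated decay, the pathway that degrades spliced Gas5, only Upf1, its central helicase, was listed, with 1 coding-sequence peak of 7.91 RPM. Over all 21900 protein-coding genes of the RefSeq table, 489 (2.23%) had a listed peak, and neither list was tested against that share.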

How the data were processed

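A single peak table of the series was analysed, with no value per library (0 columns of per-sample values were left unused). The authors gave read density in RPM, per the file headers; whether all or mapped reads form the total is not stated. The fold change column, per the file headers without a base, was read as a log2 fold change of CLIP over input. Per the submitters' processing notes, CASAVA 1.4, cutadapt, HISAT2 2.1.0, SAMtools and build mm10 were used; the peak caller, its thresholds and the pooling of replicates are not given in the sources used here. Multiplied by 11, every RPM value was whole within the rounding of the deposited decimals. Input reads, computed as CLIP reads over the linear fold times a depth ratio of 7.47, were whole within 0.15 reads in 100% of 720 peaks (those with a rounding error below 0.1 reads); a linear reading gave at best 41.5% and a natural log reading 34.5%. The smallest such ratio was taken. The Gas5 input reads are open to a rounding error of up to 0.64 reads. Totals summed over libraries would make these reads sums as well, and a constant added by the authors would be part of them.

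Intervals came from scipy 1.17.1 and tables from pandas 2.3.3 in python 3.11.15. Named items are Gas5, its 9 peaks, all snoRNA genes within its span, the snoRNA host genes nearest in summed RPM (the rule took 3, of which 2 are reported here), and the fixed lists of noncoding hosts, snoRNP proteins and decay factors. Members and lists were chosen with earlier results of these data known. Sequences are from RefSeq (GRCm38.p6). Their table has windows for Gas5 and for none of its snoRNA genes (0 matched), so the planned search for box C and box D motifs was not run. Alternatives tried were another interval, 1 added read, merging of close peaks, other overlap rules, RPM per base and leaving out a peak.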

Additional observations from a re-analysis of the deposited data

How the results depend on the processing

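No paired analysis was possible because the deposited values name no library, and for the same reason no library could be left out in turn. The number of Gas5 peaks on a snoRNA gene stayed at 8 when 50% of the peak had to lie inside, when starts were counted from 0 and when the snoRNA genes were extended by 10 bases. Merging peaks within 50 bases turned the 9 peaks into 6 intervals. The share of the summed RPM moved from 17.6% to 13.1% with merging and to 14.4% without the highest peak. The median log2 fold change was 4.99, the ratio of summed reads gave 4.998, and leaving out the peak on no snoRNA gene gave 5.21, an alternative chosen after seeing the data. The ratio of median RPM to other host genes was 20.9, 17.1 per base of peak width, and 6.34 against host peaks on snoRNA genes alone. It was 20.3 with all peaks within the host spans and 8.49 against all other peaks on snoRNA genes. These last 3 alternatives were also chosen after seeing the data. The Wilson interval moved no bound by more than 0.01, and 1 added read moved no Gas5 fold change by more than 0.01. Depth is high for each Gas5 peak, at 1525 or more CLIP and 184 or more input reads. The counting intervals overlapped for 3 of 36 pairs of peaks, and the spread between libraries is not known.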
